A study of Caenorhabditis elegans with 39 samples.

Results

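The miRNAs described here are the products of mir-228 and mir-790, hairpin genes that lie close together on chromosome IV of Caenorhabditis elegans. Every arm of either hairpin listed in the count table was taken, which gave 4 of 437 listed miRNAs: miR-228-5p, miR-228-3p, miR-790-5p and miR-790-3p. All 4 passed the filter on low counts. In the ce11 genome build (WBcel235), the mir-228 hairpin runs from 5562025 to 5562122 on chromosome IV (+ strand), with miR-228-5p at 5562040 to 5562062 and miR-228-3p at 5562082 to 5562103. The mir-790 hairpin runs from 5566422 to 5566491 on the same strand, with miR-790-5p at 5566427 to 5566448 and miR-790-3p at 5566466 to 5566488. The hairpins are 4299 bases apart, and the annotation places 13 genes between them, all of them piRNA genes and 0 of them protein-coding. The nearest protein-coding genes on either side are ari-2 (5551134 to 5558820, + strand) and T12E12.6 (5567020 to 5574133, - strand), so both hairpins are intergenic with respect to protein-coding genes. No other annotated miRNA hairpin lies within 100 kb, and the nearest one on the chromosome, mir-4815, is 102429 bases away. The piRNA 21ur-1430 is annotated at 5566428 to 5566448 on the same strand, inside miR-790-5p, with the same end and a different start. Counts per miRNA cannot show how many reads of that arm came from the piRNA. This holds for the levels and ratios of miR-790-5p below.

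A miRNA hairpin is cut into a duplex of a 5p and a 3p strand, of which an Argonaute protein such as ALG-1 usually keeps one and releases the other for decay. The kept strand guides the Argonaute to complementary sites in mRNAs. In C. elegans the mir-228 promoter is widely used to mark glia, and miR-228 has been linked to lifespan. The 5p strands of both hairpins are grouped by similarity at their start with the vertebrate miR-183 family, known from sensory organs.

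Small RNA was sequenced from whole worms of 3 genotypes, Alg1E, Alg1A and N2. Alg1E and Alg1A are mutants of ALG-1, the main miRNA Argonaute of the worm, in the N2 background. The labels do not spell out the letters, and N2 is the wild type. Worms were grown at 25 degrees and collected every hour from 18 to 30 h after synchronized first-stage larvae were plated, with 1 library per genotype and hour and 39 libraries in all. The labels name no culture, animal pool or batch for a library, so the p-values speak only of the spread among these libraries, and that spread may be technical. The tests treat the hours as independent. What the genotype fit left over correlated between successive hours, by 0.26 for miR-228-5p, 0.47 for miR-228-3p, 0.44 for miR-790-5p and 0.13 for miR-790-3p. The median over all miRNAs tested was 0.24. The p-values, those of the sign-flip tests included, may therefore be too small. In bulk RNA of whole animals, fewer cells of a type and less of a miRNA per cell cannot be told apart.

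Libraries held between 1146950 and 4668890 miRNA reads in Alg1E, between 1245377 and 4472517 in Alg1A, and between 1751599 and 4479656 in N2. Reads without an annotated feature took 49.5% ± 11.4 of the reads in Alg1E, 35.3% ± 9.64 of those in Alg1A and 37.2% ± 9.48 of those in N2 (SD over 13 hours), and the part of this in the differences below was not tested. The muscle marker miR-1-3p, the intestinal miR-60-3p and the neuronal lsy-6-3p and miR-124-3p were present in every genotype. Levels are given as CPM, the reads of a miRNA scaled to a fixed library size, after adjustment by TMM, a scaling that assumes that most miRNAs do not change. Some libraries stood apart. The Alg1E library of 27 h held the highest Alg1E level of all 4 arms, and the Alg1A libraries of 18 and 19 h had 36469 and 17156 CPM of miR-1-3p, against 66512 to 125925 CPM in N2. Values without these libraries are given where they matter.

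The 4 arms differed widely in abundance. By mean level in N2, miR-228-5p ranked 46 among the miRNAs, miR-790-5p 117, miR-228-3p 151 and miR-790-3p 194. The 5p strand was the abundant one of each hairpin in every genotype. In Alg1E the order of the arms changed, since miR-228-3p ranked 83 there, ahead of miR-790-5p at rank 122. The lowest count behind any value was 10 reads, for miR-790-3p in the Alg1A library of 19 h, and miR-228-5p had at least 1374 reads in every library. The plot of each arm by hour shows the 39 values of each.

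**Figure D1:**
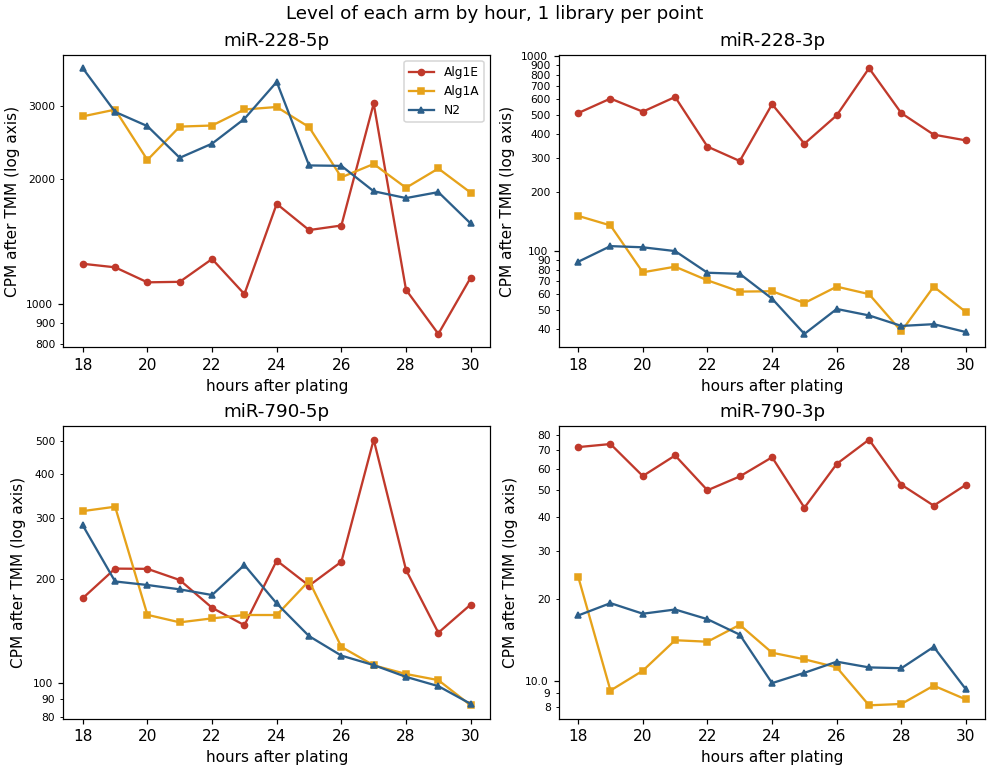
Level of each arm (CPM after TMM, log axis) by hours after plating, with 1 library per point and 1 line per genotype (Alg1E red circles, Alg1A orange squares, N2 blue triangles). Both 3p arms lie above Alg1A and N2 at every hour in Alg1E, miR-228-5p lies below them at every hour but 27 h, and the Alg1E library of 27 h is the highest Alg1E point in all 4 panels.

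The first comparison asked how the levels in the ALG-1 mutants differed from the wild type. In Alg1E, miR-228-5p fell while miR-790-5p rose slightly, and the 3p strands of both hairpins rose several-fold. All 4 arms passed the threshold in Alg1E against N2, 3 of them higher and 1 lower, where 74.9% of the 243 miRNAs tested passed it, 36.2% higher and 38.7% lower. In Alg1A, none of the 4 passed it. Tissue markers differed between Alg1E and N2 as well. The log2 difference was -0.71 for the intestinal miR-60-3p (edgeR adjusted p = 0.00100), 0.50 for the neuronal lsy-6-3p (adjusted p = 0.000141), -0.44 for the neuronal miR-124-3p (adjusted p = 0.0444) and 0.33 for the muscle miR-1-3p (adjusted p = 0.0569). Scaling on the major arms gave -0.28 for miR-60-3p, which no longer passed, 0.93 for lsy-6-3p, 0.76 for miR-1-3p, which then passed, and -0.00465 for miR-124-3p, which no longer passed and was 0.01 with scaling on paired major arms. The part of these markers in the differences of the 4 arms was not tested.

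miR-228-5p, the strand that carries the known miR-228 functions, had a lowest, median and highest level of 848, 1226 and 3034 CPM in Alg1E, 1853, 2663 and 2976 CPM in Alg1A, and 1562, 2247 and 3688 CPM in N2. Most Alg1E libraries lay below every Alg1A and N2 library, but the ranges overlapped because of the Alg1E library of 27 h and that of 24 h. The means were 1384 ± 549 CPM in Alg1E, 2459 ± 420 CPM in Alg1A and 2425 ± 642 CPM in N2 (SD over 13 hours). In the fit over all libraries, the level was 1.77-fold lower in Alg1E than in N2 (log2 difference -0.82, SE 0.13, edgeR adjusted p = 1.86e-06), lower at 12 of 13 hours. The exception was 27 h, where Alg1E was higher by 0.70 on the log2 scale. Without that library the mean in Alg1E was 1246 ± 245 CPM (n = 12) and the log2 difference was -0.96. Scaling on the major arms of hairpins, which moved the median of all miRNAs by 0.42, gave -0.40, still past the threshold.

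miR-790-5p, the abundant strand of the other hairpin, had a lowest, median and highest level of 140, 198 and 504 CPM in Alg1E, 86.3, 154 and 323 CPM in Alg1A, and 87.2, 170 and 285 CPM in N2. The ranges overlapped, and the means were 214 ± 91.7 CPM in Alg1E, 165 ± 74.3 CPM in Alg1A and 161 ± 57.2 CPM in N2 (SD over 13 hours). The level was 1.37-fold higher in Alg1E than in N2 (log2 difference 0.46, SE 0.18, edgeR adjusted p = 0.0231), and 10 of 13 hours showed it. This difference rested in part on the Alg1E library of 27 h: without it the log2 difference was 0.29 (edgeR adjusted p = 0.0647). The call was also lost with DESeq2 (0.35, adjusted p = 0.0783) and with N2 libraries that were 2 h younger (0.19, edgeR adjusted p = 0.424). Leaving out each hour in turn for all genotypes gave 0.29 to 0.55, with the call lost without 26, 27, 28 or 30 h, while scaling on the major arms gave 0.87.

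The 3p strands, the ones normally discarded, set Alg1E apart from the other genotypes at every hour. Most arms of their kind moved likewise. Of 96 less abundant (minor) arms tested together with their major arm, 73 were called higher in Alg1E than in N2 and 4 lower (median log2 difference 1.66). Of the 96 major arms, the kind to which both 5p strands belong, 65 were called lower and 5 higher (median -0.48). These counts are those with TMM and were not made with other scalings. Scaling on the major arms moved the median of all miRNAs in this comparison by 0.42. Of the 243 tested, 124 were then called higher and 55 lower, against 88 and 94 with TMM. miR-228-3p had a lowest, median and highest level of 289, 509 and 866 CPM in Alg1E, 38.7, 65.6 and 151 CPM in Alg1A, and 37.5, 56.9 and 106 CPM in N2. The lowest Alg1E library lay well above the highest of either other genotype. miR-228-3p averaged 495 ± 153 CPM in Alg1E, 74.9 ± 32.6 CPM in Alg1A and 66.5 ± 26.4 CPM in N2 (SD over 13 hours). It was 7.76-fold higher in Alg1E than in N2 (log2 difference 2.96, SE 0.17, edgeR adjusted p = 6.07e-16), with 13 of 13 hours in that direction, and ranked 12 from the top among the 243 miRNAs.

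miR-790-3p had a lowest, median and highest level of 43.1, 56.4 and 76.7 CPM in Alg1E, 8.11, 11.2 and 24.1 CPM in Alg1A, and 9.28, 13.3 and 19.2 CPM in N2. Here too the Alg1E libraries did not overlap the others. Both 3p strands thus had ranges that did not overlap between Alg1E and N2, as did 31.7% of the miRNAs tested. miR-790-3p averaged 59.4 ± 11.1 CPM in Alg1E, 12.2 ± 4.35 CPM in Alg1A and 13.9 ± 3.55 CPM in N2 (SD over 13 hours). It was 4.31-fold higher in Alg1E than in N2 (log2 difference 2.11, SE 0.13, edgeR adjusted p = 6.37e-15), at rank 37 from the top. Without the Alg1E library of 27 h the log2 differences of the 3p strands were 2.85 for miR-228-3p and 2.04 for miR-790-3p.

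Alg1E against Alg1A gave nearly the same values, with the same Alg1E libraries in both comparisons. All 4 arms passed the threshold there, where 78.2% of the miRNAs tested passed it, 39.1% higher and 39.1% lower. miR-228-5p was 1.82-fold lower (log2 difference -0.86, edgeR adjusted p = 1.02e-06) and lower at 12 of 13 hours. miR-228-3p was 6.92-fold and miR-790-3p 4.94-fold higher, each at 13 of 13 hours, and their ranges did not overlap, as for 21.0% of the miRNAs tested. miR-790-5p was 1.36-fold higher (log2 difference 0.45, edgeR adjusted p = 0.0250), at 9 of 13 hours, and the log2 difference was 0.28 without the Alg1E library of 27 h (edgeR adjusted p = 0.0702). That call was also lost without 26, 28 or 30 h, with 0.28 to 0.53 over all hours left out in turn. Scaling on the major arms gave -0.52 for miR-228-5p and 0.78 for miR-790-5p, both past the threshold.

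In Alg1A against N2, 0 of the 4 arms passed the threshold with edgeR or DESeq2, 0 had an unadjusted edgeR p under 0.05, and 10.7% of the miRNAs tested passed, 8.64% higher and 2.06% lower. The log2 difference was 0.04 for miR-228-5p (95% interval -0.23 to 0.30) and 0.17 for miR-228-3p (-0.15 to 0.48). It was 0.01 for miR-790-5p (-0.35 to 0.37) and -0.20 for miR-790-3p (-0.47 to 0.08). These intervals leave room for differences of up to 0.48 on the log2 scale. The levels of Alg1A and N2 overlapped for every arm, and 1.65% of the miRNAs tested had ranges that did not. Without 18 and 19 h, which drops the 2 Alg1A libraries low in miR-1-3p, 0 arms passed and the value of miR-790-5p was -0.10.

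**Figure D2:**
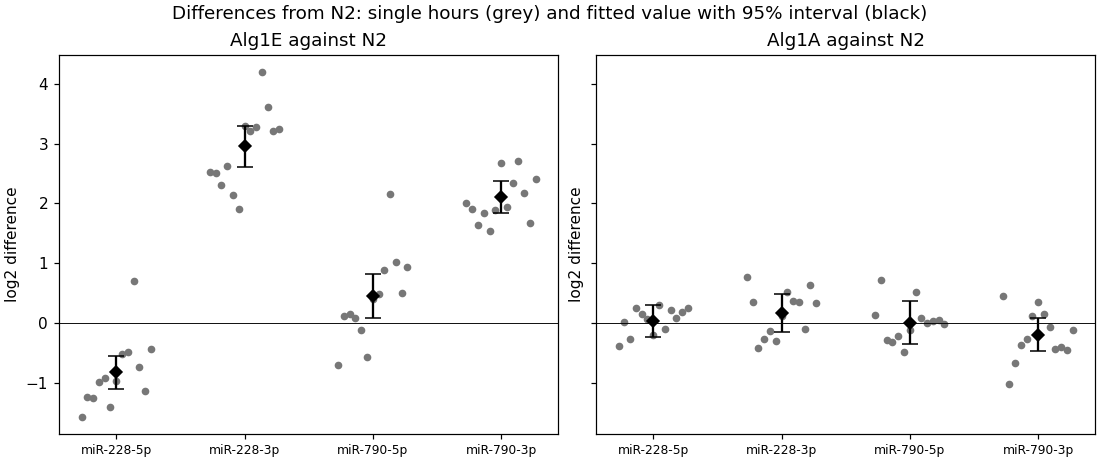
Log2 difference of each arm from N2 at the same hour for Alg1E (left) and Alg1A (right). Grey points are single hours, black diamonds the fitted differences and bars their 95% intervals; in Alg1E the fitted values are -0.82, 2.96, 0.46 and 2.11 in the order drawn, and in Alg1A every interval includes 0.

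A ratio of the arms within a library does not depend on how libraries are scaled. For miR-228, reads of the 3p strand came to a lowest, median and highest of 23.6%, 32.5% and 54.5% of those of the 5p strand in Alg1E, 2.03%, 2.76% and 5.36% in Alg1A, and 1.66%, 2.45% and 4.44% in N2. The Alg1E libraries lay apart from all others by a wide gap. For how many other hairpins the arm ratios of the genotypes also lay apart was not counted. The means were 37.4% ± 10.3 for Alg1E, 3.02% ± 1.01 for Alg1A and 2.74% ± 0.830 for N2 (SD over 13 hours). The ratio was 13.7-fold higher in Alg1E than in N2 (log2 difference 3.78, SE 0.14, limma adjusted p = 2.10e-20). It was the change of rank 6 among 94 hairpins with both arms measured, of which 88.3% changed in the ratio of minor to major arm and 86.2% rose.

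For miR-790 the shift was smaller and the N2 ratio was less lopsided. The 3p strand came to a lowest, median and highest of 15.2%, 30.3% and 40.9% of the 5p strand in Alg1E, 2.85%, 8.05% and 10.2% in Alg1A, and 5.77%, 9.77% and 13.6% in N2. The Alg1E minimum, at 27 h, was above the highest library of the other genotypes, again with no count for other hairpins. The means were 29.7% ± 6.73 for Alg1E, 7.93% ± 1.96 for Alg1A and 9.16% ± 2.13 for N2 (SD over 13 hours). The ratio was 3.21-fold higher in Alg1E than in N2 (log2 difference 1.68, SE 0.17, limma adjusted p = 1.95e-10), rank 58 of 94, below the median hairpin at 2.05. In Alg1E against Alg1A, where the ratio of minor to major arm changed for 86.2% of hairpins and rose for 81.9%, the ratio was 12.5-fold higher for miR-228 and 3.75-fold higher for miR-790.

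In Alg1A against N2 the arm ratio did not pass the threshold for either hairpin, with a log2 difference of 0.13 for miR-228 (limma adjusted p = 0.475) and -0.22 for miR-790 (limma adjusted p = 0.348), while 21.3% of hairpins did and 20.2% were higher in Alg1A. Both arms together gave 1879 ± 667 CPM for miR-228 in Alg1E, 2534 ± 438 CPM in Alg1A and 2492 ± 658 CPM in N2. The 3p strand was 26.9% ± 5.39 of those reads in Alg1E, 2.92% ± 0.945 in Alg1A and 2.66% ± 0.782 in N2. For miR-790 both arms gave 273 ± 98.5 CPM in Alg1E, 177 ± 76.8 CPM in Alg1A and 174 ± 59.8 CPM in N2 (SD over 13 hours), and the 3p strand was 22.7% ± 4.12 of them in Alg1E, 7.32% ± 1.72 in Alg1A and 8.36% ± 1.78 in N2. With TMM, the mean sum of the arms in Alg1E was thus below that of N2 for miR-228 and above it for miR-790, a difference that was not tested. The sums were not computed with other scalings. Scaling on the major arms moved the median of all miRNAs in Alg1E against N2 by 0.42 on the log2 scale, so the direction for miR-228 may depend on the scaling.

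**Figure D3:**
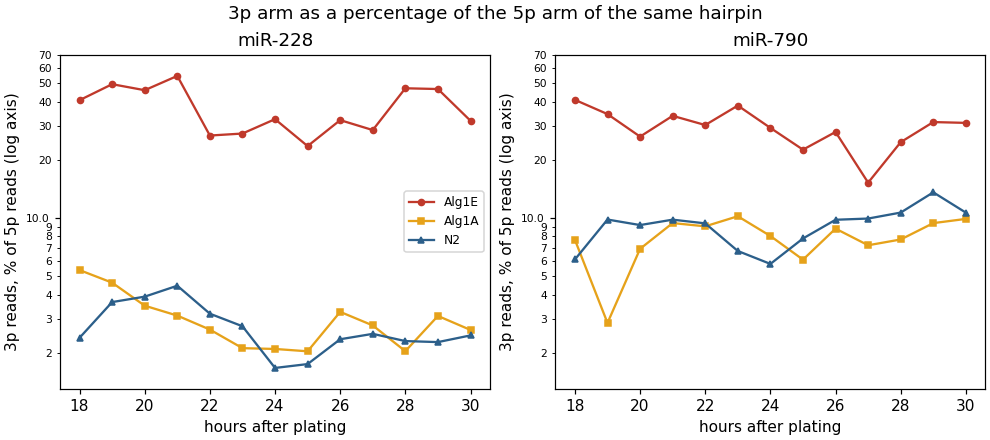
Reads of the 3p arm as a percentage of reads of the 5p arm of the same hairpin (log axis) by hours after plating, 1 library per point (Alg1E red circles, Alg1A orange squares, N2 blue triangles). For miR-228 Alg1E lies between 23.6% and 54.5% and N2 between 1.66% and 4.44%; for miR-790 Alg1E lies between 15.2% and 40.9% and N2 between 5.77% and 13.6%.

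**Figure D4:**
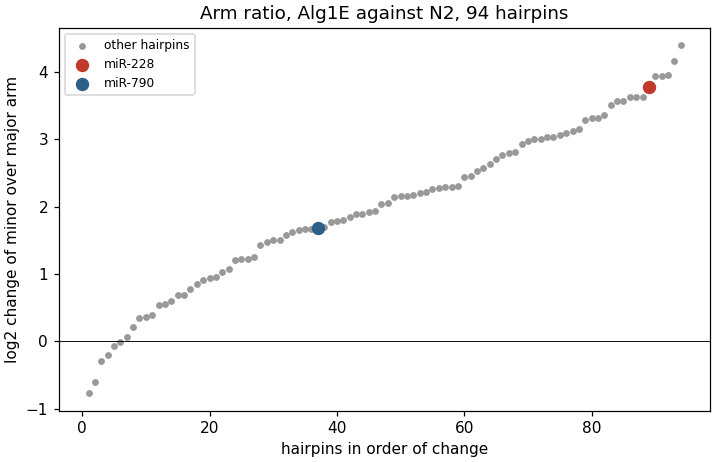
Log2 difference of the ratio of minor to major arm, Alg1E against N2, for 94 hairpins in rising order, 1 point per hairpin. miR-228 (red) is at 3.78, near the top, and miR-790 (blue) at 1.68, below the median of 2.05.

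The abundant strands of the neighbours stood in another proportion in Alg1E. Within a library, reads of miR-790-5p came to a lowest, median and highest of 12.7%, 14.6% and 19.6% of those of miR-228-5p in Alg1E, 4.66%, 5.61% and 11.1% in Alg1A, and 4.97%, 6.35% and 8.30% in N2. No Alg1E library fell into the range of the other genotypes, and the 2 highest Alg1A values were those of 18 and 19 h. How many ratios of other miRNA pairs separate Alg1E in this way was not counted, so this is not shown to be particular to the neighbours. Alg1E averaged 15.5% ± 2.36, Alg1A 6.55% ± 2.15 and N2 6.53% ± 1.09 (SD over 13 hours). The ratio was 2.39-fold higher in Alg1E than in N2 (mean log2 difference 1.26 ± 0.31, SD), at 13 of 13 hours. The exact two-sided sign-flip permutation test over the hours gave p = 0.000244, the smallest that 13 hours allow, and 0.000366 after adjustment over the 3 comparisons.

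The Alg1E library of 27 h, high in both strands, had a ratio of 16.6%, inside the range of the other Alg1E libraries. In Alg1E against Alg1A the ratio was 2.45-fold higher at 13 of 13 hours, with the same exact permutation p. In Alg1A against N2 it was higher at 5 of 13 hours, with a mean log2 difference of -0.04 (exact permutation p = 0.738).

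The 3p strands differed in the other direction. miR-790-3p came to 12.5% ± 2.64 of miR-228-3p in Alg1E, 17.4% ± 4.77 of it in Alg1A and 22.3% ± 4.63 of it in N2 (SD over 13 hours). The ranges overlapped, with 8.86% to 19.4% in Alg1E, 6.80% to 25.9% in Alg1A and 16.9% to 31.6% in N2. The log2 difference was -0.84 in Alg1E against N2, lower at 12 of 13 hours (exact permutation test, adjusted p = 0.00146). It was -0.39 in Alg1A against N2, lower at 11 of 13 hours (adjusted p = 0.0110 by the same exact test), and -0.45 in Alg1E against Alg1A, lower at 12 of 13 hours (exact permutation test, adjusted p = 0.00806).

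**Figure D5:**
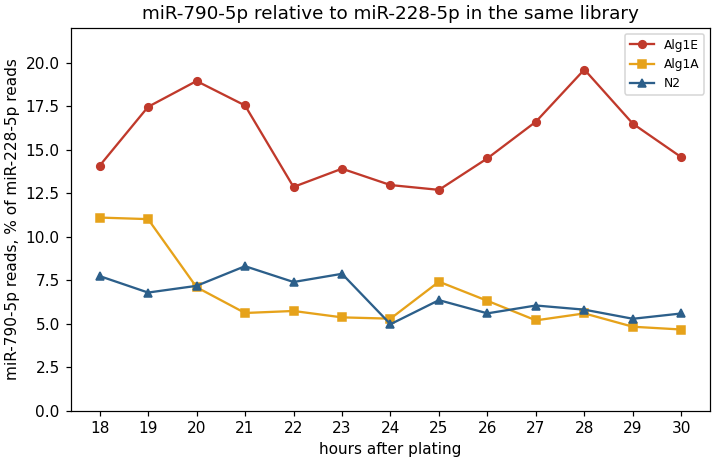
Reads of miR-790-5p as a percentage of reads of miR-228-5p in the same library by hours after plating, 1 library per point (Alg1E red circles, Alg1A orange squares, N2 blue triangles). Alg1E lies between 12.7% and 19.6% at every hour, above all N2 libraries (4.97% to 8.30%) and all Alg1A libraries (4.66% to 11.1%).

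The time courses asked whether the 4 arms changed over the 13 hours of larval growth. In Alg1E none of the 4 did so by the test, in Alg1A 2 fell, and in N2 all 4 fell. The share of miRNAs that changed was 25.1% in Alg1E, 44.0% in Alg1A and 39.5% in N2, and the share called and lower at 30 h was 11.1% in Alg1E, 20.2% in Alg1A and 21.4% in N2. Changes below are the fitted log2 level at 30 h minus that at 18 h, and the median over all miRNAs was -0.14 in Alg1E, 0.04 in Alg1A and 0.03 in N2. The p-values beside them are for any change along the whole fitted curve, not for this difference alone.

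In Alg1E the change was -0.45 for miR-228-5p (edgeR adjusted p = 0.153), -0.74 for miR-228-3p (0.506), -0.52 for miR-790-5p (0.245) and -0.65 for miR-790-3p (0.463). For all 4 arms the unadjusted p was above 0.05 as well. Without the library of 27 h these changes lay between -0.61 and -0.37, and 0 arms passed. Averaged over 18 to 20 h, 21 to 25 h and 26 to 30 h, miR-228-5p had 1201 ± 64.5, 1344 ± 281 and 1533 ± 876 CPM (SD, n = 3, 5 and 5). The last window holds the high library of 27 h.

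In Alg1A, miR-790-5p fell by 2.01 on the log2 scale (edgeR adjusted p = 0.000886) and miR-228-3p by 1.59 (adjusted p = 0.000903). The other changes were -0.54 for miR-228-5p (adjusted p = 0.0524) and -1.18 for miR-790-3p (adjusted p = 0.0778). For miR-790-5p the first hours were the highest, with 313 and 323 CPM in the Alg1A libraries of 18 and 19 h and 157 CPM at 20 h. Without 18 and 19 h its change was -0.90 (adjusted p = 0.0131), that of miR-228-3p was -0.80 and no longer passed (adjusted p = 0.120), and miR-228-5p (-0.32, adjusted p = 0.0157) and miR-790-3p (-0.47, adjusted p = 0.0483) passed. With single hours left out, miR-228-5p passed without 20 or 26 h and miR-790-3p without 18, 19 or 20 h.

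In N2, miR-790-5p fell by 1.49 on the log2 scale (edgeR adjusted p = 0.000213), miR-228-3p by 1.23 (adjusted p = 0.000124), miR-228-5p by 1.10 (adjusted p = 0.0105) and miR-790-3p by 0.67 (adjusted p = 0.0236). The call of miR-790-3p was lost without 19 h (adjusted p = 0.0686) and without 25 h. miR-228-5p averaged 3087 ± 532 CPM at 18 to 20 h, 2607 ± 514 CPM at 21 to 25 h and 1847 ± 209 CPM at 26 to 30 h (SD, n = 3, 5 and 5). miR-790-5p averaged 224 ± 52.6, 178 ± 29.7 and 104 ± 12.8 CPM in these windows. Both strands thus stood at their lowest in the last window. The N2 fall was not smooth, since miR-228-5p reached 3419 CPM at 24 h, between 2787 CPM at 23 h and 2154 CPM at 25 h.

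The difference between time courses was tested itself. Between Alg1E and N2 it passed for 3 of the 4 arms, where 35.4% of all miRNAs did. The test covers the whole shape of the course. The change by 30 h was less negative in Alg1E by 0.65 for miR-228-5p (edgeR adjusted p = 0.0246), 0.49 for miR-228-3p (adjusted p = 0.00599) and 0.97 for miR-790-5p (adjusted p = 0.00515), all on the log2 scale, while for miR-790-3p the difference was 0.03 (adjusted p = 0.259). Without the Alg1E library of 27 h, that of miR-228-5p no longer passed (0.73, adjusted p = 0.0692). With a simpler curve in time (2 degrees of freedom), miR-228-5p (1.21, edgeR adjusted p = 0.0734) and miR-228-3p (1.51, adjusted p = 0.0603) did not pass. The sizes depended on the first hours: without 18 h the difference was 0.14 for miR-228-5p and 0.13 for miR-790-5p, and without 18 and 19 h it was 0.48 for miR-790-5p, each still past the threshold.

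Between Alg1E and Alg1A, miR-790-5p alone of the 4 passed, with a change less negative in Alg1E by 1.49 on the log2 scale (edgeR adjusted p = 0.0124), where 28.4% of all miRNAs passed. It was 0.81 without 18 h and 0.22 without 18 and 19 h, still past the threshold. miR-228-3p (0.84, adjusted p = 0.0625) passed when 20, 21 or 25 h was left out. Between Alg1A and N2, 0 of the 4 passed by edgeR, with 0 at an unadjusted p under 0.05, and 2.47% of all miRNAs passed. The differences there lay between -0.52 and 0.56 on the log2 scale. Leaving out 18 and 19 h turned the sign of 3 of them, to 0.81 for miR-228-3p, 0.26 for miR-790-5p and 0.49 for miR-790-3p, with 0 passing.

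How alike the arms were from hour to hour was described by Pearson's correlation of log2 CPM, with no test, since the values share libraries, depth and the time axis. Within a genotype the abundant strands of the neighbours moved together: r between miR-790-5p and miR-228-5p was 0.89 in Alg1E, 0.77 in Alg1A and 0.90 in N2 (n = 13 hours each). Among the 242 other miRNAs, miR-790-5p was at rank 4, 5 and 4 in likeness to miR-228-5p in Alg1E, Alg1A and N2, and the median miRNA had r of -0.03 in Alg1E, 0.01 in Alg1A and 0.08 in N2. In likeness to miR-790-5p, miR-228-5p was at rank 4 in Alg1E, 27 in Alg1A and 9 in N2. Over all 39 libraries the same pair had r = 0.23, at rank 87. Without the Alg1E library of 27 h, r within Alg1E was 0.64 (n = 12), and without 18 and 19 h, r within Alg1A was 0.81 (n = 11).

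Over the 39 libraries, the miRNAs most like miR-228-5p were miR-57-5p (r = 0.92), miR-245-3p (0.86) and miR-73-3p (0.85). miR-57-5p, known for a role in posterior cell fate, averaged 3386 ± 615 CPM in Alg1E, 5596 ± 1393 CPM in Alg1A and 5900 ± 1344 CPM in N2 (SD over 13 hours), and its r with miR-228-5p was 0.89 within Alg1E, 0.80 within Alg1A and 0.89 within N2. For miR-245-3p, r with miR-228-5p was 0.43 within Alg1E, 0.74 within Alg1A and 0.89 within N2. For miR-73-3p it was 0.79, 0.38 and 0.71 in that order. The values within Alg1E include the library of 27 h, the highest there for miR-228-5p. Like miR-228-5p, miR-57-5p (log2 difference -0.78), miR-245-3p (-1.02) and miR-73-3p (-0.42) were lower in Alg1E than in N2 with TMM. Their r over the 39 libraries includes that difference. With scaling on the major arms, miR-57-5p (-0.36) and miR-245-3p (-0.61) still passed. For miR-73-3p that scaling was not examined, and it moved the median of all miRNAs by 0.42. Most like miR-790-5p were miR-124-5p (0.84), miR-249-3p (0.82) and miR-51-5p (0.79). miR-124-5p, an arm of the neuronal mir-124, averaged 43.7 ± 13.4 CPM in Alg1E, 30.0 ± 14.9 CPM in Alg1A and 21.9 ± 8.89 CPM in N2, higher in Alg1E than in N2 by 1.05 on the log2 scale. The abundant arm of that hairpin, miR-124-3p, was lower in Alg1E than in N2 (-0.44, edgeR adjusted p = 0.0444) and than in Alg1A (-0.57, adjusted p = 0.00897), with both calls lost under scaling by total counts (-0.16 against N2 and -0.38 against Alg1A) or on the major arms (-0.00465 and -0.23).

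For the 3p strands, the values of all 39 libraries fall into Alg1E and the rest, and r over them includes that difference. The miRNAs most like miR-228-3p were miR-87-5p (r = 0.98), miR-90-5p (0.97) and the neighbour's miR-790-3p (0.96). Its r with miR-87-5p was 0.94 within Alg1E, 0.94 within Alg1A and 0.86 within N2. With miR-790-3p it was 0.77 within Alg1E, 0.55 within Alg1A and 0.90 within N2. Without the Alg1E library of 27 h, r with miR-790-3p within Alg1E was 0.70 (n = 12). The other values within Alg1E in this paragraph include that library. Most like miR-790-3p were miR-56-5p (0.97), miR-90-5p (0.97) and miR-87-5p (0.96). Its r with miR-56-5p was 0.55 within Alg1E, 0.70 within Alg1A and 0.70 within N2. In the same order it was 0.82, 0.86 and 0.78 with miR-90-5p, and 0.76, 0.44 and 0.78 with miR-87-5p. miR-87-5p was higher in Alg1E than in N2 by 3.36, miR-56-5p by 3.45 and miR-90-5p by 2.25 on the log2 scale.

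As miR-228 is linked to lifespan, it was set beside 7 other miRNAs known for parts in ageing or stress resistance. In Alg1E against N2, 3 of the 7 were lower and 0 higher, with a median of -0.24 against 0.01 over all miRNAs, of which 38.7% were lower and 36.2% higher. The lower ones were miR-246-3p (-1.32), miR-238-3p (-0.43) and lin-4-5p (-0.42). With scaling on the major arms, miR-246-3p still passed (-0.90), while miR-238-3p (-0.00885) and lin-4-5p (-0.000423) did not, and with paired major arms their values were 0.00747 for miR-238-3p and 0.02 for lin-4-5p. In Alg1A against N2, 0 of the 7 passed with edgeR, 1 of them with an unadjusted p under 0.05, and 10.7% of all miRNAs passed. Over time, 1 of the 7 was higher at 30 h in Alg1E, 4 were higher and 1 lower in Alg1A, and 3 were higher in N2, beside 25.1% of all miRNAs that changed in either direction in Alg1E, 44.0% in Alg1A and 39.5% in N2. miR-246-3p was higher at 30 h by 5.83 in Alg1E, 5.11 in Alg1A and 5.84 in N2 on the log2 scale.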

How the data were processed

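The authors deposited a table of whole-number read counts per mature miRNA and library, not normalized. The submitters' processing notes name the build ce11 and the tools HTSeq, SAMtools 1.9, Bowtie 1.2.2 and cutadapt 2.3. Their settings, the use of strand and whether reads were collapsed by molecular identifier are not stated there, so PCR copies may count as reads. The 5 summary entries stayed out of library sizes and tests, and 33 miRNAs had no read.

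edgeR 4.0.16 in R 4.3.3 tested 243 miRNAs that passed filterByExpr, with TMM, a quasi-likelihood model of genotype plus hour over all 39 libraries, a natural spline in hours (3 degrees of freedom) for time, and Benjamini-Hochberg adjustment over all tested with a threshold of 0.05. limma 3.58.1 tested log2 arm ratios (prior count 0.5) of hairpins whose arms each averaged 10 reads or more, in a model of genotype plus hour. Ratios between hairpins were tested by exact sign flips over hours. Tests of genotypes and of ratios were two-sided. Those of time and of differences in time course covered all terms of the spline together, without a direction. The tests were tried on simulated counts, drawn independently for each library with the same spread for all miRNAs. Sign flips were tried on independent normal values. These trials held no correlation between successive hours, so they cannot show how the tests behave with it.

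Members and lists were chosen with earlier results of these data known. Named beside the 4 arms were the 3 miRNAs most correlated with each, the lifespan or stress list and the tissue markers. The alternatives were RLE, total counts and major-arm scaling, DESeq2 1.42.0, no filter, 2 genotypes at a time, N2 libraries 2 h younger, other splines, other prior counts and minimum reads, ratios not matched by hour, and leaving out each hour or both 18 and 19 h. Leaving out the Alg1E library of 27 h, the other scalings for the list and the markers, and the tests of the miR-790 arm ratio and of the ratio of the 3p strands, were added after the data were seen.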

Additional observations from a re-analysis of the deposited data

Results flagged for a closer look

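The course over time differed between Alg1E and N2 for miR-228-5p (edgeR adjusted p = 0.0246), miR-228-3p (adjusted p = 0.00599) and miR-790-5p (adjusted p = 0.00515), and between Alg1E and Alg1A for miR-790-5p (adjusted p = 0.0124), each by the interaction of genotype and time in edgeR. The fitted changes from 18 to 30 h were less negative in Alg1E by 0.65, 0.49, 0.97 and 1.49 on the log2 scale in that order. All 4 kept their calls without 18 h, and miR-790-5p kept both of its calls without 18 and 19 h. The Alg1E library of 27 h held the highest Alg1E level of each of these arms. Without 18 h, 2 of the differences from N2 were 0.14 for miR-228-5p and 0.13 for miR-790-5p, and that of miR-790-5p from Alg1A was 0.81, or 0.22 without 18 and 19 h. Without the 27 h library the difference from N2 no longer passed for miR-228-5p (0.73, adjusted p = 0.0692), and the other 3 differences kept their calls. With a spline of 2 degrees of freedom, the differences from N2 no longer passed for miR-228-5p (1.21, edgeR adjusted p = 0.0734) and miR-228-3p (1.51, adjusted p = 0.0603). miR-790-5p kept both of its calls there.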

How the results depend on the processing

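Of 1081 values under alternatives to 57 results, 997 kept their direction and call or stayed near the main count, 24 lost a call, 18 gained one, 26 turned sign and 16 counts moved. The calls of miR-228-5p, miR-228-3p and miR-790-3p in Alg1E against N2 and Alg1A held under every alternative, as did those of both arm ratios in these comparisons. The cause of the changes below was not tested. miR-790-5p lost its call in Alg1E against N2 and Alg1A with RLE (0.35 and 0.35), DESeq2 (0.35 and 0.35), only the 2 genotypes (0.40 and 0.35), without the Alg1E library of 27 h (0.29 and 0.28) and with N2 2 h younger (0.19); leaving out single hours gave 0.29 to 0.55 and 0.28 to 0.53. In Alg1A against N2 its uncalled value was -0.00347 with RLE and with DESeq2, -0.10 without 18 and 19 h and -0.0586 to 0.0565 without single hours; its ratio to miR-228-5p gave -0.0967 to 0.00855. The 26 miRNAs called there became 51 with only the 2 genotypes and 48 without 18 and 19 h.

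Over time in Alg1A, miR-228-5p passed with RLE (-0.70), total counts (-0.51), without 18 and 19 h (-0.32) and with 2 or 4 degrees of freedom (-0.58 and -0.54), and ranged from -0.65 to -0.45 without single hours. miR-790-3p passed with RLE (-1.36), without 18 and 19 h (-0.47) and with 4 degrees of freedom (-1.13), and ranged from -1.33 to -0.0881; miR-228-3p lost its call without 18 and 19 h (-0.80). In N2, miR-790-3p ranged from -0.81 to -0.42, with the call lost without 19 h or 25 h. In Alg1E, 2 degrees of freedom gave 0.24 for miR-228-5p and 0.27 for miR-790-5p, uncalled, and 40 in place of 61 calls.

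Between the courses of Alg1E and N2, miR-790-3p gave -0.0787 with RLE, -0.30 with major-arm scaling, 0.61 without 18 and 19 h (then called) and -0.22 to 0.32 without single hours. miR-228-5p lost its call without the 27 h library (0.73), with 2 degrees of freedom (1.21) and with a single hour left out (edgeR adjusted p = 0.122). Without single hours it ranged from 0.14 to 1.02. miR-228-3p lost its call with 2 degrees of freedom (1.51). Between Alg1A and N2, 18 and 19 h left out gave 0.81 for miR-228-3p, 0.26 for miR-790-5p and 0.49 for miR-790-3p; 2 degrees of freedom gave 0.30 for miR-228-3p; single hours gave -0.55 to 0.13 for miR-228-3p and -0.78 to 0.67 for miR-790-3p. Between Alg1E and Alg1A, miR-228-5p passed with RLE (0.12) and gave -0.18 with major-arm scaling and -0.0617 to 0.44 without single hours. miR-228-3p gave -0.0128 without 18 and 19 h and 0.20 to 1.23 without single hours, and miR-790-3p -0.65 to 0.79. With 2 degrees of freedom the number of calls was 18 in place of 86 between Alg1E and N2, 0 in place of 6 between Alg1A and N2 and 32 in place of 69 between Alg1E and Alg1A. Without 18 and 19 h it was 0 in place of 6 between Alg1A and N2 with edgeR, 11 at an unadjusted p under 0.05, and single hours gave 0 to 16 and, for Alg1E and Alg1A, 44 to 87. RLE, total counts and major-arm scaling moved the median of all miRNAs in Alg1E against N2 by -0.12, 0.27 and 0.42. miR-790-3p rested on 10 to 103 reads in Alg1A libraries, so its hourly values there are the least precise.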
